A study of Homo sapiens with 16 samples.

Results

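The nuclear-encoded subunits of the oxidative phosphorylation machinery were followed in human kidney organoids by culture day, by TNFα treatment and by cell class. They comprise 88 of the 36601 genes listed in the single-cell data, chosen by symbol: genes that begin with NDUFA, NDUFB, NDUFC, NDUFS, NDUFV, UQCR, COX4I, COX5, COX6, COX7, COX8 or ATP5, and SDHA to SDHD. Antisense genes, NDUFAF assembly factors and pseudogenes were left out, and the choice used no measured value. By textbook role, 37 of the genes belong to complex I (7 core and 30 accessory), 4 to complex II, 8 to complex III, 19 to complex IV and its relatives, and 18 to complex V including its inhibitor ATP5IF1. The last 2, UQCRHL and ATP5MGL, are copies of other members. In bulk RNA, where the genes were matched by Ensembl ID, 83, 85 and 83 of them were listed in the 3 tables described below.

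Oxidative phosphorylation is carried out in the inner mitochondrial membrane. Complexes I and II take electrons from NADH and succinate, complex III passes them to cytochrome c, complex IV hands them to oxygen, and complex V (ATP synthase) uses the resulting proton gradient to make ATP. Most subunits are encoded in the nucleus, a small core is encoded by mitochondrial DNA, and the proximal tubule of the kidney is known for its dense mitochondria and its reliance on this pathway for solute transport.

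Because the members are known to share regulators such as NRF1 (nuclear respiratory factor 1), ETS family factors, YY1 and ERRα, their RefSeq promoters (assembly GRCh38.p14, 250 bases before to 50 bases after each transcription start) were searched on both strands for fixed letters. Promoters were found for 70 of the 88 members, in 83 windows, against 35116 windows of all genes. GCGCATGCG, the NRF1 letters, stood in 13.3% of the members' windows, in 1.92% of all windows and in 2.36% of the 22199 windows of protein-coding genes. CCGGAAG, the ETS letters, stood in 26.5% against 10.3% and 12.8%, and ATGGCGG, the YY1 letters, which hold an ATG and mostly lay just after the start, in 27.7% against 5.55% and 6.99%. TCAAGGTCA, the ERR letters, stood in 1.2% against 0.353% and 0.243%, which is 1 member, SDHD. Windows of 30 bases around the NRF1 letters, in capitals, are printed for 5 members of complexes I, II, IV and V, 4 of which are described by their RNA in later paragraphs and the other, NDUFA8, among the ratios in single cells. COX6A1 and ATP5MC2 hold the letters on the opposite strand, as CGCATGCGC.
NDUFA5, complex I, chr7:123557957-123557986, minus strand: tatgcccatcGCGCATGCGtcaatttttct
NDUFA8, complex I, chr9:122159764-122159793, minus strand: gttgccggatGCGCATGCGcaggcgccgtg
SDHD, complex II, chr11:112086753-112086782, plus strand: agctgtgtttGCGCATGCGcgacgggtgtg
COX6A1, complex IV, chr12:120437884-120437913, plus strand: ggagggcacaCGCATGCGCacgaaggaaac
ATP5MC2, complex V, chr12:53676105-53676134, minus strand: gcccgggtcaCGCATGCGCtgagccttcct
The 11 members with the NRF1 letters were NDUFA5, NDUFA8, NDUFB4, NDUFS6, NDUFS7, SDHD, COX6A1, ATP5F1C, ATP5MC2, ATP5ME and ATP5PF, and a match of letters is a description of the window, not of binding.

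All organoids came from 1 human embryonic stem cell line, UM77-2, and all bulk RNA came from isolated spheroids. Set 1 held 1 library each of day 21 (D21), D25 and D29, and set 2 held 2 libraries of each of these days, from cultures refed daily. The TNF set held 4 libraries, vehicle control (VC) and 5 ng/ml TNFα for 24 h or 48 h, all collected at D25. The 2 single-cell libraries came from whole wells dissociated at D24, 1 after VC and 1 after 5 ng/ml TNFα for 24 h. The labels do not say whether the paired libraries of set 2 came from separate cultures, so p-values measure the spread between these libraries, which may be technical.

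Bulk libraries held 19073609 to 59246286 reads, and the deposited values were log2(CPM + 1), CPM being counts scaled by the library total. The single-cell libraries held 11906 VC cells and 23160 TNFα cells with more than 500 genes, at a median of 6358 and 2599 UMIs (unique molecular identifiers, 1 per captured RNA), and 74 cell barcodes occurred in both. Cell classes were named from kidney and other markers. The podocyte-like class held 11 of 11 podocyte markers and the proximal tubule-like class 10 of 11 proximal tubule markers. This restates how they were named. In VC the proximal tubule-like class was also the highest named class in summed distal tubule markers, at 1833 CPM against 579 over all cells. Here CPM are UMIs scaled to the class total. It was also highest in early nephron markers, at 1183 against 427, beside 2403 for its own list. The class is thus not marked by proximal tubule genes alone, and the part of other nephron cells in its values was not tested. Of 5 leukocyte markers 1 was listed in the bulk TNF set. The 3 bulk tables were normalized separately, so every test was kept within a table.

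Levels were compared between genes only after division by exon length, as CPM per kilobase in set 2. This length joined all annotated exons of a gene (12174 bases for NDUFS1) and is not that of 1 transcript. Exon bases shared with other genes were kept in it. The part of both in the order below was not tested. In 12 members, among them COX6A1, the bulk level was low in set 2 or the TNF set although single cells held 100 CPM or more. The order is thus one of bulk counts. ATP5F1B, the catalytic β subunit of ATP synthase, was the highest of complex V at 211 CPM per kilobase, and UQCRC1, a core subunit of complex III, the highest of that complex at 57.5. In complexes I, II and IV the highest per kilobase were NDUFS5 (97 CPM per kilobase), an accessory subunit, SDHC (65.6), a membrane anchor of succinate dehydrogenase, and COX7C (62.6), a small subunit of cytochrome c oxidase. The members of these 3 complexes with the highest mean log2 value, which is not divided by length, were others and stood lower per kilobase: NDUFS1, an iron-sulfur subunit, at 11.6, SDHA, the flavoprotein of succinate dehydrogenase, at 14.5, and COX4I1, the common isoform of subunit 4, at 28.9.

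Tissue-restricted isoforms were low beside their common partners. COX6B1 stood at 58.4 CPM per kilobase and its testis-type relative COX6B2 at 0.15. COX7A2 stood at 32.1 and the muscle-type COX7A1 at 0.246, and COX8A stood at 42.8 against 0.434 for COX8C. COX6A2, the muscle isoform of subunit 6A, COX4I2, the isoform known for hypoxia and lung, and COX7B2 were not listed in set 2, where COX6A1 had 7.93 and COX7B 9.61 CPM per kilobase. In the TNF set COX4I2 was listed with log2 values of 0.61 and 0.69 in VC and 0.63 and 0.85 after TNFα. Of the 3 genes for the c ring of ATP synthase, ATP5MC2 (43.6 CPM per kilobase) and ATP5MC3 (35.1) were above ATP5MC1 (8.66). NDUFA4, a complex IV subunit once assigned to complex I, had 22.2 CPM per kilobase against 6.01 for NDUFA4L2, its hypoxia-inducible relative.

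From D21 to D29 NDUFA4L2 was the only member that moved by more than 0.5 on the log2 scale. Of 85 members tested, 1 rose and 4 fell at an adjusted p under 0.05 (limma with Benjamini-Hochberg adjustment over all 27650 genes), while 18.4% of all genes were called, 10.0% higher and 8.33% lower. The members' median log2 fold change was -0.05, beside -0.02 over all genes, and 14.6% of all genes moved by more than 0.5 on the log2 scale. The count rested on the setting: median centring gave 1 higher and 12 lower at a median of -0.15 (25.6% of all genes called), and leaving out 1 library gave 1 member without replicate 2 of D21 or of D29, 2 without replicate 1 of D21 or either library of D25, and 6 without replicate 1 of D29 (8.53% to 19.6% of all genes). NDUFS5 rose in complex I, UQCRFS1 fell in complex III, NDUFA4L2 fell among the complex IV genes, ATP5F1B and ATP5IF1 fell in complex V, and none of the 4 complex II genes passed the test. Median fold changes were -0.06 in complex I, -0.06 in complex II, -0.00 in complex III, 0.08 in complex IV and -0.07 in complex V. These are values without median centring, so the side of 0 on which complex IV lies may rest on the setting. In bulk RNA, fewer cells of a type and less RNA per cell cannot be told apart.

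**Figure D1:**
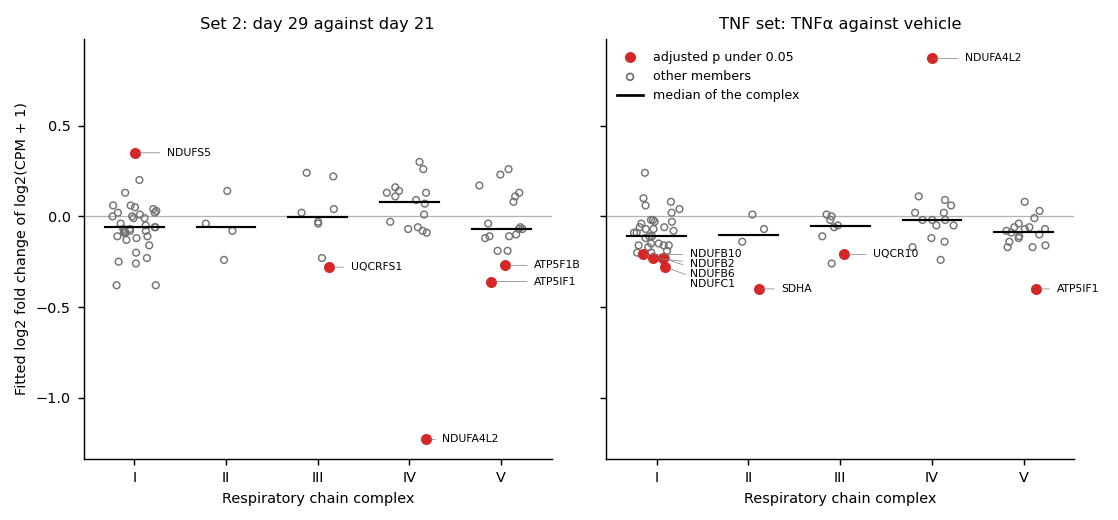
Fitted log2 fold changes of the members, 1 point per gene, by respiratory chain complex, for D29 against D21 in set 2 (left) and TNFα against VC in the TNF set (right), with red points for an adjusted p under 0.05 (limma) and bars at the median of the complex. Nearly all points lie within 0.5 of 0, and NDUFA4L2 stands alone at -1.23 by day and at 0.87 after TNFα.

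NDUFA4L2 (chromosome 12, 57234903 to 57240715, minus strand, GRCh38) had log2 values of 4.73 and 4.82 at D21, 3.86 and 3.83 at D25, and 3.64 and 3.44 at D29. Both D29 libraries were below both D25 libraries, which were below both D21 libraries. It fell by 1.23 on the log2 scale from D21 to D29 (SE 0.11, adjusted p = 0.0003, limma), and the call was kept in 13 of 13 alternative settings, whose adjusted p ran from 6.39e-14 to 0.00757. Its constitutive relative NDUFA4 had values of 6.27 and 6.01 at D21, 6.35 and 6.23 at D25, and 6.39 and 6.40 at D29, a fitted difference of 0.26 that missed the threshold (adjusted p = 0.107, limma).

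ATP5IF1 (chromosome 1, 28236109 to 28246906, plus strand), the peptide that inhibits ATP hydrolysis by complex V, read 5.58 and 5.36 at D21, 5.30 and 5.19 at D25, and 5.17 and 5.04 at D29. The D21 and D29 libraries did not overlap. It fell by 0.36 (SE 0.10, adjusted p = 0.0395, limma), but the call was lost in 6 of 13 settings, among them without replicate 1 (0.24) or replicate 2 (0.0526) of D21, replicate 1 (0.0627) or replicate 2 (0.062) of D25, and replicate 2 of D29 (0.161).

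ATP5F1B (chromosome 12, 56638175 to 56645984, minus strand) read 8.98 and 9.06 at D21, 8.82 and 8.91 at D25, and 8.75 and 8.76 at D29, and it fell by 0.27 (SE 0.08, adjusted p = 0.0499, limma). Both D21 values stood above the other days and both D29 values below them. The adjusted p passed 0.05 by limma without a trend (0.08), by edgeR (0.0742) and by DESeq2 (0.0677). It also did so without any 1 of the 6 libraries, so this call rests at the threshold.

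UQCRFS1 (chromosome 19, 29205320 to 29213151, minus strand), the Rieske iron-sulfur protein of complex III, read 6.13 and 6.0 at D21, 5.94 and 5.88 at D25, and 5.80 and 5.77 at D29. The days did not overlap. It fell by 0.28 (SE 0.07, adjusted p = 0.0345, limma). The call was lost by limma without a trend (0.0814), by DESeq2 (0.0956) and without any 1 of the 6 libraries.

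NDUFS5 (chromosome 1, 39026318 to 39034636, plus strand), an accessory subunit of complex I, was the member that rose. It read 5.65 and 5.50 at D21, 5.75 and 5.77 at D25, and 5.86 and 5.99 at D29, so that D29 stood above D25 and D25 above D21. The fitted change was 0.35 (SE 0.08, adjusted p = 0.0221, limma). The call was lost in 3 of 13 settings, by limma without a trend (0.0557) and without replicate 2 of D21 or of D29.

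**Figure D2:**
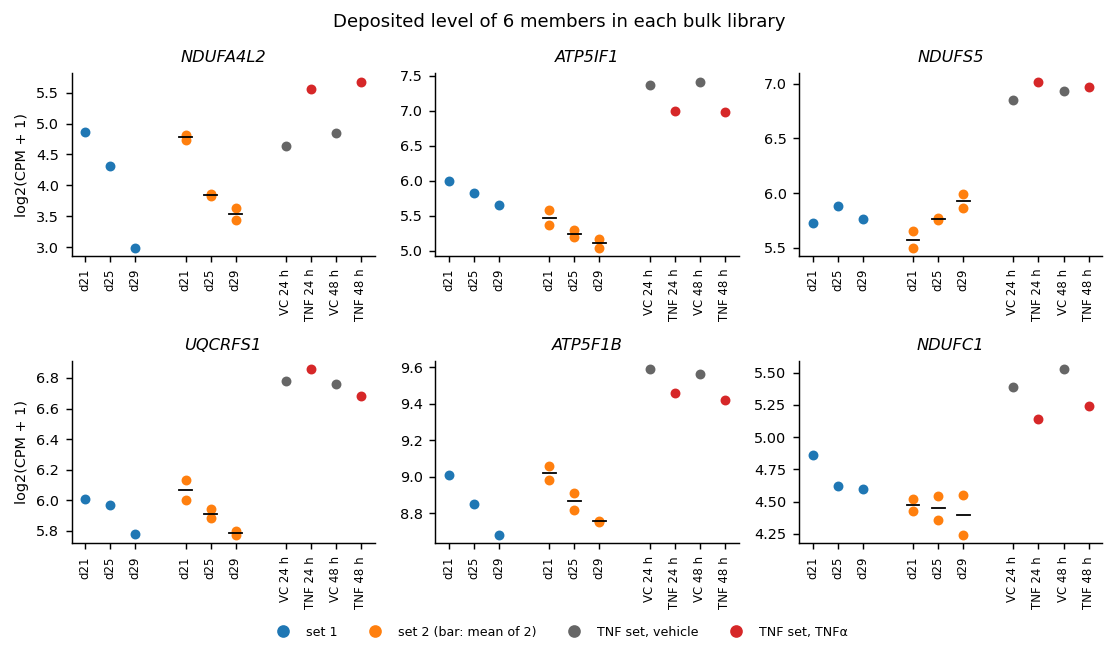
Deposited log2(CPM + 1) of 6 members in each bulk library of set 1, set 2 (bars at the mean of 2 libraries) and the TNF set, 1 point per library, on axes that do not start at 0 and differ between genes. NDUFA4L2 declined from 4.82 to 3.44 between the highest and lowest library of set 2 and lay at 5.56 and 5.68 in the TNFα libraries against 4.64 and 4.85 in VC.

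Between D21 and D25 the only member called was NDUFA4L2, which fell by 0.93 (SE 0.11, adjusted p = 0.00386, limma), while 5.37% of all genes were called. This call was lost without replicate 2 of D21 (0.0679) or replicate 2 of D25 (0.0503). Between D25 and D29 0 of 85 members were called by limma, edgeR or DESeq2, with 2 at an unadjusted p under 0.05 by limma, and 2.08% of all genes were called. NDUFA4L2 differed by -0.30 there (SE 0.11, adjusted p = 0.202, limma). The difference between both intervals was not tested.

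With 1 library per day, set 1 gives differences without a replicate check. From D21 to D29 the members' median difference was -0.21 on the log2 scale, with 66 of 83 members below 0, beside -0.00 over all genes. All 8 complex III members lay below 0, at a median of -0.21. The 11 common subunits of complex IV also all lay below 0, at a median of -0.37. In set 2, without median centring, their median was 0.11, with 7 of 11 above 0. Elsewhere in set 1 the medians were -0.14 in complex I, -0.31 in complex II and -0.26 in complex V.

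NDUFA4L2 again had the lowest difference, with log2 values of 4.87 at D21, 4.32 at D25 and 2.99 at D29. NDUFA5, an accessory subunit of complex I, read 6.37, 5.56 and 5.59, and SDHD, a membrane anchor of complex II, read 4.33, 3.75 and 3.60. ATP5F1B (9.01, 8.85 and 8.68), ATP5IF1 (6.0, 5.82 and 5.66) and UQCRFS1 (6.01, 5.97 and 5.78) were in each case lower on the later day. NDUFS5, the member that rose in set 2, read 5.73, 5.88 and 5.76 and differed by 0.03 between D21 and D29.

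In set 2, of 20 glycolysis genes 16 fell and 1 rose between D21 and D29, at a median of -0.67, with HK2 (-1.32) and the glucose transporter SLC2A1 (-1.13) among those that fell. Of 10 hypoxia targets 7 fell and 1 rose, at a median of -0.86, among them the mitophagy receptor BNIP3 (-1.17). PDK1, which inhibits pyruvate dehydrogenase, fell by 1.09, and LDHA, which makes lactate, by 0.75. The summed glycolysis reads were 11081 and 11820 CPM at D21 and 7910 and 7301 CPM at D29, whereas the members summed to 5313 and 5062 CPM and to 4920 and 4978 CPM.

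The 13 subunits encoded by mitochondrial DNA had a median change of 0.26, of which 3 rose (MT-ND3, MT-ND5 and MT-ND4L) and 1 fell (MT-ND6, by 0.78). Of 46 assembly factors 1 fell (NUBPL, by 0.37), of 14 electron carrier genes 1 fell (COQ4, by 0.29) and of 14 citric acid cycle genes 1 fell (IDH3B, by 0.29). Of 13 nuclear regulators 3 fell and 1 rose. PPARGC1B, a coactivator of mitochondrial genes, fell by 1.18, the orphan receptor ESRRA by 0.60 and the mitochondrial RNA polymerase POLRMT by 0.41, and the coactivator PPRC1 rose by 0.25. Markers of cell types moved in the same samples. Of 11 podocyte markers 7 fell (median -1.11), of 11 proximal tubule markers 5 fell and 1 rose (median -0.42), and 8 of 9 stromal markers rose (median 1.86). Of 10 RNA quality and stress genes 1 rose (ATF3, 1.16) and 2 fell (FOS, -2.61, and NEAT1, -0.47). The part of such shifts in the members' values was not tested.

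**Figure D3:**
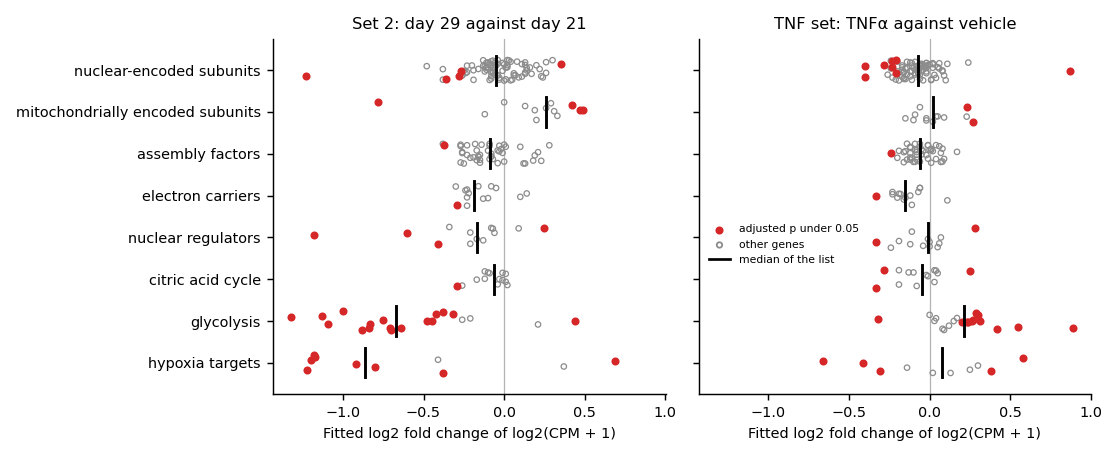
Fitted log2 fold changes of the members and of related gene lists, 1 point per gene, for D29 against D21 in set 2 (left) and TNFα against VC (right), with red points for an adjusted p under 0.05 (limma) and bars at list medians. By day the medians of glycolysis genes (-0.67) and hypoxia targets (-0.86) lie far left of the members (-0.05), and after TNFα glycolysis genes lie right of 0 (0.21).

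TNFα was set against VC at both times together, in a fit with time and treatment as terms that leaves 1 residual degree of freedom. With 1 library per treatment and time, both times stand in for replicates. The p-values thus rest on how the TNFα difference varied between the times, not on repeated cultures. Of 83 members tested 1 rose and 7 fell (limma, adjusted over 21093 genes), or 8 members, while 19.3% of all genes were called, 8.42% higher and 10.8% lower. The median fold change was -0.07 (all genes -0.03), and 65 of 83 members were below 0. Complex I held 4 of the members that fell (NDUFC1, NDUFB2, NDUFB6 and NDUFB10), and complexes II, III and V held 1 each (SDHA, UQCR10 and ATP5IF1). NDUFB10 and UQCR10, which fell by 0.21 each, lay outside the rule for named genes and were named after their values were seen. The count was 3 by limma without a trend (15.2% of all genes), 5 by edgeR (21.1%) and 2 by DESeq2 (10.4%). It was 10 with median centring (21.7%), 9 with no added 1 (20.4%) and 11 of 80 with a low-value filter (23.7%). Taken at each time alone and without a test, 1 member, NDUFA4L2, differed by 0.5 or more at 24 h (8.71% of all genes) and at 48 h (7.94% of all genes), and the members' medians were -0.05 and -0.10.

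NDUFA4L2 was the member that rose. It read 4.64 in VC and 5.56 after TNFα at 24 h, and 4.85 and 5.68 at 48 h, so that both TNFα libraries stood above both VC libraries. The fitted rise was 0.87 (SE 0.08, adjusted p = 1.47e-07, limma), and the call was kept in 7 of 7 alternative settings, at an adjusted p of at most 0.00491. ATP5IF1 read 7.37 in VC and 7.0 after TNFα at 24 h, and 7.42 and 6.98 at 48 h, without overlap between treatments. It fell by 0.40 (SE 0.06, adjusted p = 0.000131, limma) and kept the call in 7 of 7 settings, at an adjusted p of at most 0.0195.

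The other named falls were smaller or less secure. NDUFC1 (chromosome 4, 139266880 to 139302551, minus strand), a small accessory subunit of complex I, read 5.39 in VC and 5.14 after TNFα at 24 h, and 5.53 and 5.24 at 48 h. It fell by 0.28 (SE 0.07, adjusted p = 0.0124, limma). The call was lost by limma without a trend (0.0645), by DESeq2 (0.157) and without a term for time (0.182). NDUFB2 fell by 0.23 (adjusted p = 0.0355, limma) and NDUFB6 by 0.23 (adjusted p = 0.0484, limma), and both lost the call in 3 or more of 7 settings. The libraries of NDUFC1 and NDUFB2 did not overlap between treatments, and neither did those of NDUFB6, which read 5.21 and 5.26 in VC and 5.06 and 4.96 after TNFα. Called members, by day and after TNFα, were picked by the same libraries, so such separation lends their calls no further support.

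SDHA (chromosome 5, 218303 to 257082, plus strand) read 2.29 in VC and 1.79 after TNFα at 24 h, and 2.21 and 1.91 at 48 h. It fell by 0.40 (SE 0.12, adjusted p = 0.0299, limma), and lost the call by DESeq2 (0.42) and without a term for time (0.193). Its level was unlike that of the other sets, with a mean of 2.05 in the TNF set beside 6.82 in set 1 and 6.99 in set 2, in tables that were normalized separately. In GENCODE 44, 21.7% of the exon bases of SDHA lie in another gene on the same strand, ENSG00000286001, and the part of this overlap in the counts was not tested.

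Among the related lists, 11 of 20 glycolysis genes rose and 1 fell after TNFα, at a median of 0.21, led by SLC2A1 (0.89), ENO2 (0.55) and PDK1 (0.42). Of 10 hypoxia targets 2 rose (PFKFB4 and EGLN3) and 3 fell (NDRG1, CA12 and VEGFA), so this list was split. Of 13 mitochondrially encoded subunits MT-ND1 (0.27) and MT-ND2 (0.23) rose. Citric acid cycle genes counted 1 rise (CS, 0.25) and 2 falls, among them SUCLG1 (-0.28), and 1 of 46 assembly factors (ATPAF1, -0.24) and 1 of 14 electron carrier genes (ETFB, -0.33) fell. Of 13 regulators PPRC1 rose (0.28) and ESRRG fell (-0.33). In the same libraries 11 of 11 podocyte markers fell (median -0.82) and 9 of 11 proximal tubule markers fell with 1 that rose (median -0.88). Of the 10 RNA quality and stress genes 1 rose (ATF3, 0.54) and 6 fell, at a median of -0.32. The part of these changes in the members' values was not tested.

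The cells were grouped without the members and without mitochondrially encoded genes, so that the members' levels did not define the classes. Of 14 clusters 8 were named by markers and 6, which held 3646 VC cells, stayed unnamed. Some of the unnamed clusters held enough markers of a list, but another list had more genes among their leading genes. In the cluster with 10 of 11 podocyte markers this was 1 gene, the endothelial marker CLDN5, beside no podocyte marker. In the VC library the summed members took the largest part of the RNA in proximal tubule-like cells, at 31109 CPM, here UMIs of the members scaled like the bulk reads (95% interval 31030 to 31189, exact Poisson), and the smallest in stromal-like cells, at 21125 (21050 to 21201). Between them lay podocyte-like (26990), neuronal-like (25795), muscle-like (25232), neural progenitor or glial-like (23900) and proliferating-like cells (23572). The intervals of the last 2 did not overlap, and neither did those of podocyte-like and neuronal-like cells, but they cover counting error only, since there was 1 VC library and no test between cells was made.

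The ratio of proximal tubule-like to stromal-like cells was 1.47 (1.47 to 1.48) for the summed members. Complex I summed to 10709 against 7687 CPM, complex II to 340 against 238, complex III to 3213 against 2031, complex IV to 7099 against 4543, and complex V to 9744 against 6623, each with the higher value in proximal tubule-like cells. Gene by gene, 77 of 82 members with enough UMIs were higher in proximal tubule-like cells, at a median ratio of 1.47. In 75 of them the interval lay above 1, but it covers counting error only and can leave out 1 at small differences. Among the members with a ratio below 1 were NDUFS1 (0.853), NDUFS5 (0.971), ATP5F1E (0.976) and the scarce COX6B2 (0.177). Of the 81 members that reached 20 CPM in some named class, 45 were highest in proximal tubule-like cells, 15 in podocyte-like and 10 in muscle-like cells, and 0 in stromal-like cells. No share of all genes is given beside these counts, so whether they are particular to the members was not tested. The other lists were ordered differently in part. Glycolysis genes summed to 11091 CPM in the proximal tubule class and 4654 in the stromal class, and mitochondrially encoded subunits were highest in stromal-like cells (25785), above proximal tubule-like (24084) and neuronal-like cells (18027).

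**Figure D4:**
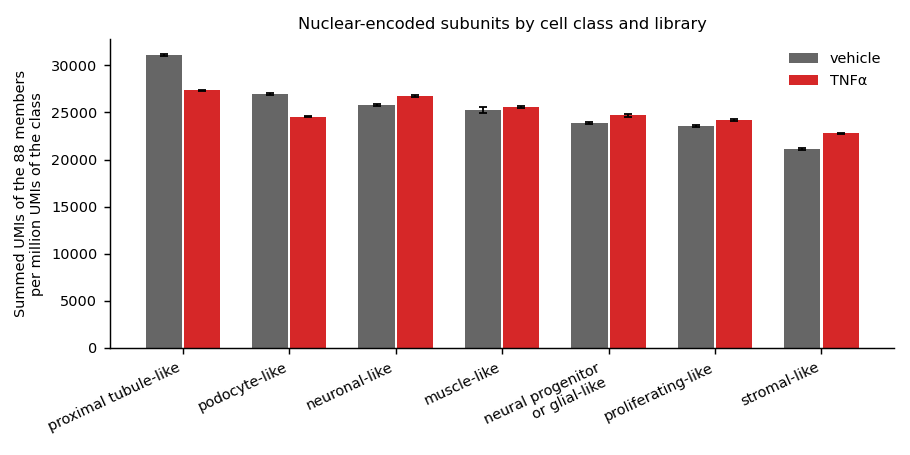
Summed members as CPM (UMIs scaled to the total of the class) in each named cell class of the VC and TNFα single-cell libraries, with exact Poisson 95% intervals for counting error only. Proximal tubule-like cells are highest in both libraries (31109 and 27348) and stromal-like cells lowest (21125 and 22775).

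The members' median ratio of highest to lowest class was 1.65, with 65 of 81 members under 2-fold. No such ratio over all genes is given beside it. Another 13 members lay between 2-fold and 3-fold, among them ATP5IF1 (2.98), NDUFA5 (2.73), NDUFA7 (2.71) and SDHD (2.67), and 3 members, COX6A2, NDUFA4L2 and NDUFC1, at 3-fold or more. COX6A2 (chromosome 16, 31427731 to 31428360, minus strand) had 158 CPM in the 119 muscle-like cells, at most 1 CPM in any other named class and 0 UMIs in stromal-like cells, at least 750-fold lower when 3 counts are taken as the floor. COX7A1, the other muscle-type isoform, was also highest in muscle-like cells, at 5.28 CPM. It had 32 UMIs in the whole VC library, so this order rests on few counts.

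NDUFA4L2 stood at 65.8 CPM in proximal tubule-like cells (62.2 to 69.5), 56.8 in podocyte-like and 38.7 in muscle-like cells, and between 2.18 and 10 CPM in the other named classes. NDUFC1 was highest in podocyte-like cells (359 CPM), followed by proximal tubule-like cells (293), and lowest in neuronal-like cells (108). ATP5IF1 shared the epithelial pattern, with 786 CPM in proximal tubule-like and 703 in podocyte-like cells against 264 to 360 in the other classes. NDUFA5 reached 300 CPM in proximal tubule-like and 110 in neural progenitor or glial-like cells. NDUFS5 ran the other way, with 762 CPM in neuronal-like and 423 in podocyte-like cells. Among the c-ring genes, ATP5MC1 was highest in proximal tubule-like cells (343 CPM), ATP5MC2 in neural progenitor or glial-like cells (1383) and ATP5MC3 in muscle-like cells (1164). NDUFA4 was highest in muscle-like (1487) and lowest in stromal-like cells (839).

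With 1 library per condition the classes were compared as ratios of TNFα to VC, with exact binomial intervals for counting error only. The summed members took a smaller part of the RNA after TNFα in proximal tubule-like cells, at a ratio of 0.879 (0.876 to 0.883), and in podocyte-like cells, at 0.91 (0.905 to 0.915), and a larger part in stromal-like cells, at 1.08 (1.07 to 1.08). The podocyte-like class left out an unnamed cluster of 475 VC and 1475 TNFα cells that held 10 of 11 podocyte markers, and at a finer clustering a cluster of 1 VC and 690 TNFα cells was podocyte-like, so the class did not hold like parts of both libraries. The ratio was between 1.01 and 1.04 in the other 4 named classes and 0.975 over all cells. The direction was shared across complexes in both epithelial classes, from 0.852 (complex III) to 0.895 (complex IV) in proximal tubule-like cells and from 0.879 (complex II) to 0.94 (complex IV) in podocyte-like cells. In stromal-like cells complexes I, III, IV and V had ratios of 1.06 to 1.13 and complex II 0.923. The difference between proximal tubule-like and stromal-like cells was 1.47-fold in VC and 1.2-fold after TNFα.

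**Figure D5:**
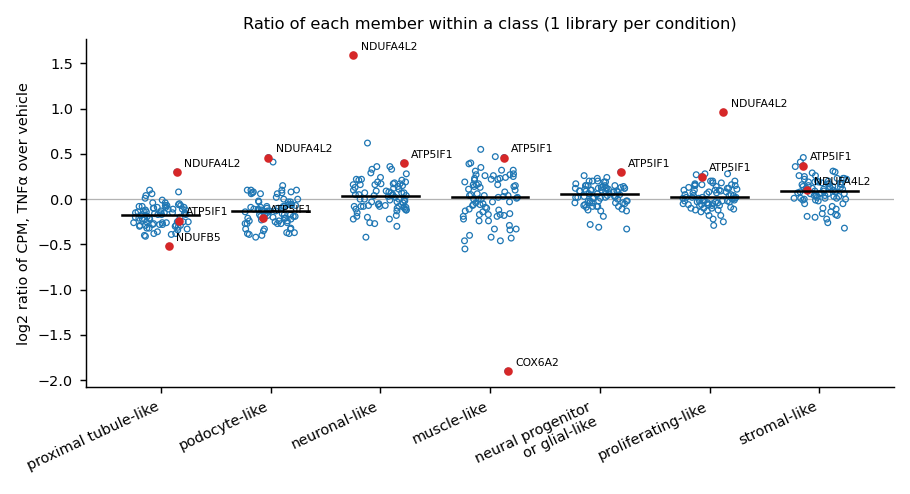
Log2 ratio of CPM, TNFα over VC, of each member with 50 or more UMIs in both libraries (1 point per gene), by named cell class, with bars at class medians, selected members in red and 1 library per condition. Most points lie below 0 in proximal tubule-like and podocyte-like cells, NDUFA4L2 stands at 1.59 in neuronal-like and 0.96 in proliferating-like cells, and COX6A2 stands at -1.90 in muscle-like cells.

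Single members moved by little. In podocyte-like cells 64 of 81 members were below 0 at a median log2 ratio of -0.13, beside 0.004 over all genes. There 1 member, UQCRHL, was past 0.5 on the log2 scale, while 30.2% of all genes with 50 or more UMIs in both libraries together were. Shares over all genes, here and below, include genes near 50 UMIs, whose ratios carry more counting error than those of most members. The part of depth in these contrasts was not tested. In proximal tubule-like cells 76 of 82 members were below 0 at a median of -0.17, beside 0.055 over all genes. There 2 members, UQCRHL and NDUFB5, were past 0.5, beside 20.1% of all genes. In stromal-like cells 61 of 82 members were above 0 at a median of 0.09, beside -0.055 over all genes. There 2 members were past 0.5, UQCRHL and COX6B2, both lower, beside 20.5% of all genes. Members past 0.5 numbered 4 in muscle-like (41.9% of all genes), 2 in neuronal-like (32.5%), 1 in proliferating-like (16.9%) and 1 in neural progenitor or glial-like cells (14.2%), and 3 over all cells (17.9%), and NDUFA4L2 was among them in each case. The UMIs of UQCRHL, an intronless copy of UQCRH, may be shared with its parent gene and are uncertain.

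Among members with 50 or more UMIs in each library, which leaves out UQCRHL, the 5 ratios farthest from 1 were named in each of these classes. In podocyte-like cells NDUFA4L2 had a ratio of 1.37, NDUFC1 had a ratio of 0.748 (0.712 to 0.786), ATP5F1D 0.756 and NDUFA11 0.762, and NDUFS5 had 1.33 (1.28 to 1.38). In proximal tubule-like cells NDUFB5 had 0.696 (0.665 to 0.728), ATP5PB 0.753, NDUFA8 0.759, UQCRH 0.761 and COX5A 0.771. In stromal-like cells NDUFA7 had 1.37 (1.28 to 1.47), ATP5MC1 1.33, ATP5IF1 1.3 and NDUFA6 1.28, and SDHA had 0.802.

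The 2 members whose call in the TNF set was kept in all 7 alternative settings were followed by class. NDUFA4L2 had ratios of 1.37 (1.23 to 1.54) in podocyte-like and 1.23 (1.13 to 1.33) in proximal tubule-like cells, from 56.8 to 78.1 and from 65.8 to 80.8 CPM. From low levels it had 3.02 in neuronal-like, 3.61 in neural progenitor or glial-like (2.06 to 6.49, from 21 and 37 UMIs) and 1.95 in proliferating-like cells, and in those 3 classes the summed podocyte markers had ratios of 2.86, 4.02 and 1.98 and the proximal tubule markers 2.9, 1.06 and 1.51, whose part in these ratios was not tested. It had 0.617 in muscle-like cells and 1.07 (0.852 to 1.35) in stromal-like cells, whose interval holds 1. Over all cells, whose mix of classes differed between the libraries, its ratio was 1.49 (1.43 to 1.56). The classes highest in it in VC took larger shares of the TNFα cells. These were 10.8% and 15.2% for proximal tubule-like, 7.81% and 14.2% for podocyte-like, and 0.999% and 6.61% for muscle-like cells. The part of this mix in the ratio was not tested. ATP5IF1 was lower after TNFα in podocyte-like cells (0.862, 0.833 to 0.892) and proximal tubule-like cells (0.847, 0.826 to 0.869), but higher in neuronal-like (1.32), muscle-like (1.38) and stromal-like cells, and at 1.04 over all cells.

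Class identity differed between the libraries in the same cells. The summed markers of the own class had ratios of 0.489 in podocyte-like cells, 0.655 in proximal tubule-like, 0.668 in stromal-like and 0.344 in muscle-like cells. In proximal tubule-like cells podocyte markers went from 223 to 656 CPM and stromal markers from 421 to 1145 CPM, and in podocyte-like cells stromal markers went from 1248 to 1957 CPM. The median depth of proximal tubule-like cells was 8990 UMIs in VC and 2589 after TNFα, and that of muscle-like cells, in which COX6A2 went from 158 to 42.5 CPM, was 9875 and 2270 with 119 and 1532 cells. The part of these differences in the members' ratios was not tested. Mitochondrially encoded subunits had a ratio of 1.29 over all cells, and 1.18 to 1.54 by class, the opposite side of 1 from the nuclear members in proximal tubule-like and podocyte-like cells. Glycolysis genes had 1.25 in stromal-like, 0.96 in podocyte-like and 0.872 in proximal tubule-like cells.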

How the data were processed

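Bulk RNA was profiled by paired-end sequencing of total RNA, and single cells by droplet capture after cold-protease dissociation. For the bulk tables the authors aligned reads to GRCh38 (Ensembl 104) with STAR 2.7.8a, counted them with HTSeq (0.11 in the submitters' processing notes, another version in the study's methods) and deposited log2 values, which equal log2(CPM + 1) with 0.5 added to each count: 100% of the values gave whole reads when this was undone. For single cells the authors deposited raw UMI counts from Cell Ranger (2.1.1 in the submitters' processing notes, 6.0.1 in the file header). A control single-cell library of D25 was not analysed here.

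Log2 values were tested with limma 3.58.1 (R 4.3.3, eBayes with a trend on the mean, two-sided, Benjamini-Hochberg adjustment over all genes of a table, called at 0.05), with 1 mean per day in set 2 and terms for time and treatment in the TNF set. A fold change is a difference of log2(CPM + 1) and understates changes of low genes. Alternatives were median centring, no trend, no added 1, a filter of 1 CPM in 2 libraries, edgeR 4.0.16 and DESeq2 1.42.0 on the recovered reads, a replicate block, treatment alone, and leaving out each library. Median centring moved the median of all members from -0.05 to -0.15 for D29 against D21.

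Cells with more than 500 genes were brought to a common total of 10000 UMIs. After 229 genes were set aside (among them the members and mitochondrially encoded genes), the 2000 most variable ones per library (scanpy 1.11.5) gave 30 components. These were aligned between libraries by a reimplementation of the Harmony method, not by the published package. Cells were then clustered by Leiden on shared neighbours (resolution 0.25, leidenalg 0.10.2). A cluster was named from at least 3 markers at 20 CPM and 1 on the log2 scale above the other cells, by the list with the largest share passing. The name was withheld where another list held more of the cluster's leading genes. This left unnamed a cluster with 10 of 11 podocyte markers, another with 5 of 6 myogenic progenitor markers and another with 8 of 9 proliferating markers. UMIs were summed per class. Doublets were not removed, since the automatic threshold of Scrublet marked 0 cells in either library. Intervals are exact at 95% and cover counting error only. Exon lengths and gene positions came from GENCODE 44 and promoters from RefSeq.

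The members, gene lists and tests were chosen with earlier results of these data known. Values are named for isoform pairs, for the 5 largest called rises and 5 largest called falls of D29 against D21 and of TNFα against VC, for the highest member of each complex, for the 5 members most uneven between classes, and for the 5 largest ratios in the podocyte, proximal tubule and stromal classes. SDHD and NDUFA5 in set 1, SDHC, COX7C, SDHD and NDUFA7 among levels and class ratios, and members named in counts of 5 or fewer, were added after their values were seen. The limma and edgeR fits were tested on simulated data. Single values of some genes are not reported here.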

Additional observations from a re-analysis of the deposited data

Results flagged for a closer look

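In single cells the summed members stood on opposite sides of 1 after TNFα, at 0.91 of VC in podocyte-like cells and 0.879 of VC in proximal tubule-like cells, against 1.08 in stromal-like cells. These results were set apart because the direction of the ratio differed between classes. With 1 library per condition the difference was not tested. The ratios of the epithelial classes without alignment of the libraries were 0.983 and 0.953. Marker levels shifted in these classes too. Podocyte-like cells kept 0.489 of their VC marker level, proximal tubule-like cells 0.655 of theirs and stromal-like cells 0.668. Among the classes just named, each of these marker lists had ratios above 1 outside its own class. They ran from 1.02 (proximal tubule list, stromal-like cells) to 2.94 (podocyte list, proximal tubule-like cells). In the remaining named classes they ran from 0.982 (stromal list, proliferating-like cells) to 4.02 (podocyte list, neural progenitor or glial-like cells). The part of these marker shifts in the ratios of the summed members was not tested.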

How the results depend on the processing

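Of the counts, medians of all members, ratios and named genes recomputed under other settings 0 reversed. Medians by complex in set 2 are given without median centring, and their side of 0 under it is not reported here. Among the named genes, calls were lost in 40 cases and gained in 12. For D29 against D21 in set 2, 5 members were called, and 13 after median centring (1 higher, 12 lower, with 25.6% of all genes called), 2 without the trend (16.5%) and 3 by DESeq2 (16.2%). Leaving out 1 library gave 1 to 6 members (8.53% to 19.6%), and 0 to 1 for D25 against D21 (0.872% to 8.07%). With TNFα, 8 members were called, and 3 without the trend (15.2%), 5 by edgeR (21.1%), 2 by DESeq2 (10.4%) and 2 with treatment alone (6.21%). The count was higher in the other settings, at 10 with median centring (21.7%), 9 with no added 1 (20.4%) and 11 of 80 with the low-value filter (23.7%). No library could be left out of the TNF fit, which would then have 0 residual degrees of freedom. The cause of these changes was not tested.

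With the replicate number as a block, 9 members were called for D29 against D21 (1 higher, 8 lower, with 21.9% of all genes called), 1 for D25 against D21 (7.56%) and 0 for D29 against D25 (4.04%). The labels give the libraries of each day the numbers 1 and 2 without saying what they share. Deviations from the day means correlated at 0.102, 0.0611 and 0.202 between same-numbered libraries. What these libraries share is not known from the labels and was not tested.

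The ratio of proximal tubule-like to stromal-like cells was 1.47, and 1.493 without doublets. It was 1.544 with another denominator, which left out 100 mitochondrially encoded and ribosomal protein genes. The TNFα ratio in podocyte-like cells was 0.943 with that denominator, 0.917 at a resolution of 0.5, 0.983 without alignment and 0.922 in cells of 2000 or more UMIs. In proximal tubule-like cells these were 0.875, 0.953 without alignment, 0.885 without doublets and 0.889 in cells of 2000 or more UMIs, and in stromal-like cells 1.094, 1.092 without alignment and 1.085 without doublets. Without alignment 1 unnamed cluster held 14518 of the TNFα cells. The doublet setting, which removed 9.76% of VC and 18.7% of TNFα cells by score, was chosen after seeing the data.

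Depth limits the isoforms at a few CPM, and 1 library per condition limits set 1 and the single cells. In 12 members the bulk level was under 4 on the log2 scale in set 2 or the TNF set although single cells held 100 CPM or more, and 10 of these 12 share more than 5% of their exon bases with another gene on the same strand, against 11 of 70 others. The part of this overlap was not tested.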
